A study of Mus musculus with 35 samples.

Results

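The keratin-associated protein (Krtap) genes were followed through mouse skin after a single dose of radiation. Members were all rows of the deposited gene table whose symbol starts with Krtap and a digit, which gave 58 genes of 36106. Their levels were not used to choose them. RNA had been sequenced in bulk from 35 biopsies of skin taken from 19 female mice of the inbred strain C57BL/6J, which were 10 weeks old. Skin labelled radiated had received 25 Gy over the left flank and was shaved afterwards. It was biopsied at weeks 1, 2, 3 and 4, with 4 samples a week. Skin labelled control was sampled in the same weeks, again with 4 samples a week, and the labels do not say from which site on the body it came. Skin labelled sham came from 3 mice given no radiation. The labels give no week for it, so comparisons with sham cannot be taken as matched in time or hair cycle. Radiated and control samples carry the same numbers within a week, and 35 biopsies from 19 animals leave 1 mouse for each number, so a pair of that kind was taken as 1 mouse. The labels name no transgene or drug in any group, and different weeks are different mice.

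Keratin-associated proteins fill the space between the keratin filaments of the hair shaft and cross-link them through disulfide bonds. They are made in the cortex and cuticle of the growing follicle, above the zone where the hair keratins first appear, and are close to absent when the follicle rests. By composition they fall into high-sulfur, ultrahigh-sulfur and glycine-tyrosine-rich classes. In back and flank skin their RNA therefore goes with the growth phase of the hair cycle, called anagen, and is low in the resting phase, telogen.

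By family number, 20 genes were placed in the high-sulfur class, 17 in the ultrahigh-sulfur class (families 4, 5, 9 and 17) and 16 in the glycine-tyrosine-rich class (families 6, 7, 8, 19, 20, 21 and 22). The 5 genes of families 28, 29 and 31 were left unplaced. The coding sequences followed these names in their medians, while the classes overlapped. The median share of cysteine codons was 20.2% in the high-sulfur, 37.7% in the ultrahigh-sulfur and 8.05% in the glycine-tyrosine-rich class. All 9 high-sulfur genes on chromosome 16 held 4% to 12.7% cysteine codons, inside the glycine-tyrosine-rich range of 0% to 16.7%. The high-sulfur gene Krtap1-3, at 30.6%, exceeded the ultrahigh-sulfur gene Krtap9-3, at 27.2%. Glycine and tyrosine codons together had a median of 63.3% in the glycine-tyrosine-rich class against 7.77% in the high-sulfur class. Krtap16-3, numbered among the high-sulfur genes, held 59.3% glycine and tyrosine codons and 8.14% cysteine codons. Krtap28-10 and Krtap28-13 were rich in both, with 42.9% and 42.8% cysteine codons and 38.7% and 42.0% glycine and tyrosine codons. Also rich in both were the ultrahigh-sulfur genes Krtap5-2, Krtap5-3 and Krtap17-1. They held 34.6%, 35.1% and 35.8% cysteine codons and 36.0%, 39.3% and 34.9% glycine and tyrosine codons. Krtap15 had the lowest cysteine share of the high-sulfur class, at 4%.

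On GRCm38 the members lay in 5 chromosomal clusters. Chromosome 16 held 25 genes within 0.960 Mb, among them all 16 glycine-tyrosine-rich genes and 9 high-sulfur genes. Chromosome 11 held 23 genes within 0.444 Mb, including 12 ultrahigh-sulfur and 8 high-sulfur genes. The 5 Krtap5 genes lay on chromosome 7, 3 genes (Krtap12-1, Krtap10-4 and Krtap10-10) on chromosome 10, and Krtap28-10 and Krtap28-13 on chromosome 1. Krtap3-1 is a gene of 604 bases at chr11:99566027-99566630 on the minus strand, Krtap19-2 lies at chr16:88873627-88874269 and Krtap11-1 at chr16:89570176-89571183, both also on the minus strand. Each member had a transcript of 1 exon. The 3 genes on chromosome 10 lie inside the gene Tspear, so reads of those genes and of Tspear may not be told apart in unspliced RNA.

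The upstream sequences were searched for the letters of the TATA box, the element at which the basal transcription machinery is positioned. RefSeq start sites were matched for 51 of the 58 genes. The letters TATAAA, on either strand, occurred in the 250 bases upstream of 41 of them, or 80.4%, against 12.97% of 27025 promoters of all genes. In the sense direction and between 20 and 50 bases upstream, 34 Krtap promoters held it, or 66.7%, against 2.56% of all promoters. The site type bound by LEF1 and TCF proteins, CTTTGA, was found on either strand in 12 of 51, or 23.5%, against 14.05% of all. The 150 bases upstream of 5 members are shown, the family 3 genes Krtap3-1 and Krtap3-2, which differ in their levels, and 1 gene each of families 4, 11 and 19, 5′ to 3′ on the gene's own strand, from RefSeq on GRCm38.p6, with TATAAA in capitals where it occurs. They lie at chr11:99566631-99566780 (Krtap3-1), chr11:99556854-99557003 (Krtap3-2), chr11:99665961-99666110 (Krtap4-6), chr16:89571184-89571333 (Krtap11-1) and chr16:88874270-88874419 (Krtap19-2), all on the minus strand. Krtap19-2 was the one of the 5 without these letters in the 150 bases.
Krtap3-1: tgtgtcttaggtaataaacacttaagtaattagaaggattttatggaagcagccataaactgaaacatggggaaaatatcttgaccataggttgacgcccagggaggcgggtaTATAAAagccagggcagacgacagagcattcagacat
Krtap3-2: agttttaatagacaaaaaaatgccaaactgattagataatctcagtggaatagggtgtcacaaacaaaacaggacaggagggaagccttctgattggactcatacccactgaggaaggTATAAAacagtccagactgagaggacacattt
Krtap4-6: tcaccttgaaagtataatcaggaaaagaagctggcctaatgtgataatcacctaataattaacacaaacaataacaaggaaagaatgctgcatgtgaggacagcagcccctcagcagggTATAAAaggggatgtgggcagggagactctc
Krtap11-1: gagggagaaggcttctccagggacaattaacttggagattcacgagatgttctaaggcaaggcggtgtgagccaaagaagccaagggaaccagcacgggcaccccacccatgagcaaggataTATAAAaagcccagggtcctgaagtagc
Krtap19-2: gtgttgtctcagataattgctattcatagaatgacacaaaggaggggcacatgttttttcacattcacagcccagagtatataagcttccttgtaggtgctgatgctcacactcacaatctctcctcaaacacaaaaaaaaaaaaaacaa

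Levels are given as CPM (counts scaled to a common library size), the share of a library's estimated counts that fell on a gene after scaling by trimmed mean of M values (TMM). Library totals ran from 17362853 to 28487885 counts, and 3 counts, taken as the floor of detection, correspond to 0.132 CPM in the first sham library. Epidermal keratinocyte markers (Krt5, Krt14, Krt1, Krt10, Dsp and Lor) summed to between 7120 and 30679 CPM in every library, as the skin label states. Skeletal muscle markers were also present, from 884 to 45263 CPM. One sham library stood apart: sham replicate 1 had a summed Krtap level far below the other two. In bulk RNA, fewer cells of a type and less RNA per cell cannot be told apart.

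Summed over the 58 genes, Krtap RNA was high in a minority of samples and at most 19.4 CPM in the others. The sums in sham skin were 124, 3636 and 3378 CPM. Radiated skin of week 1 had 5.25, 4.48, 12.5 and 5.45 CPM, and control skin of week 1 had 1047, 5.39, 5.24 and 109 CPM. All sham libraries lay above all radiated libraries of week 1, while control library 1 lay within the sham range and control library 4 just under it. In week 2 radiated skin had 3.63, 7.23, 7.45 and 2.58 CPM and control skin 19.4, 7.95, 7.38 and 9.79 CPM. In week 3 radiated skin had 0.503, 0.606, 0.609 and 91.1 CPM and control skin 6.93, 5.16, 6.45 and 176 CPM. Replicate 4 was the high sample of both groups of week 3, so in 1 mouse both skin samples were high. In week 4 radiated skin had 17.6, 1.32, 589 and 4.03 CPM and control skin 9.03, 7.51, 9.40 and 5.91 CPM. The high sample of week 4 was radiated replicate 3. Only 8 of the 35 libraries exceeded 50 CPM, 3 of them sham, 3 control and 2 radiated.

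**Figure D1:**
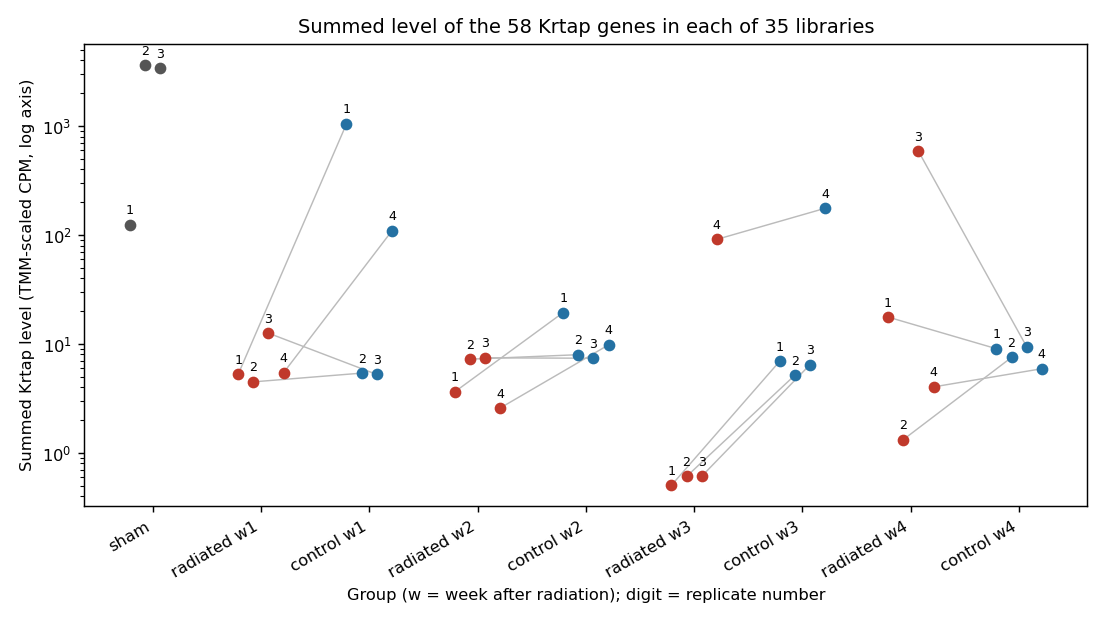
Summed level of the 58 Krtap genes (vertical axis, TMM-scaled CPM, log scale) in each library, by group (horizontal axis); points are libraries with their replicate numbers, grey sham, red radiated and blue control, and grey lines join the radiated and control sample of 1 mouse. Sham libraries reach 3636 CPM and most others sit below 20 CPM, with 2 high libraries in control week 1, at 1047 and 109 CPM, and 1 in each group of week 3 and in radiated week 4.

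Within mice the radiated and control samples differed in both directions. In week 1 the control sample exceeded the radiated one 199-fold in mouse 1 and 20.1-fold in mouse 4, while in mouse 3 the radiated sample was 2.39-fold higher. In week 2 the control sample was higher in mice 1, 2 and 4, by 5.34-fold, 1.10-fold and 3.80-fold, and the radiated one 1.01-fold higher in mouse 3. In week 3 the control sample was higher in all 4 mice, by 13.8-fold, 8.51-fold, 10.6-fold and 1.93-fold. In week 4 the radiated sample of mouse 3 exceeded its control 62.6-fold and that of mouse 1 by 1.95-fold, and in mice 2 and 4 the control was higher, by 5.69-fold and 1.47-fold. In most libraries with low sums over 50% of the sum was 1 member, Krtap3-2, which is described further on. Without it, a sum taken after its values were seen, the week 3 control remained higher in all 4 mice, by 5.71-fold, 4.96-fold, 9.81-fold and 1.87-fold, with radiated sums of only 0.229, 0.186 and 0.267 CPM in mice 1 to 3. In week 4 mouse 4 then turned round, with 3.67 CPM in radiated and 1.84 CPM in control skin, and the radiated sample of mouse 1 was 7.67-fold and that of mouse 3 215-fold higher. In week 1 the control sample then exceeded the radiated one 535-fold in mouse 1 and 89.1-fold in mouse 4, while in mouse 2 the radiated one was 1.32-fold higher. In week 2 the control sample was then higher 34.8-fold in mouse 1 and 16.1-fold in mouse 4, and the radiated one 2.64-fold in mouse 2 and 1.28-fold in mouse 3. The number of members with at least 3 counts followed the sums: 46, 57 and 56 in sham, 55 in control week 1 replicate 1 and 56 in radiated week 4 replicate 3. It was 1 to 2 in radiated week 3 replicates 1 to 3. Krtap13 had 0 counts in all 35 libraries.

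**Figure D2:**
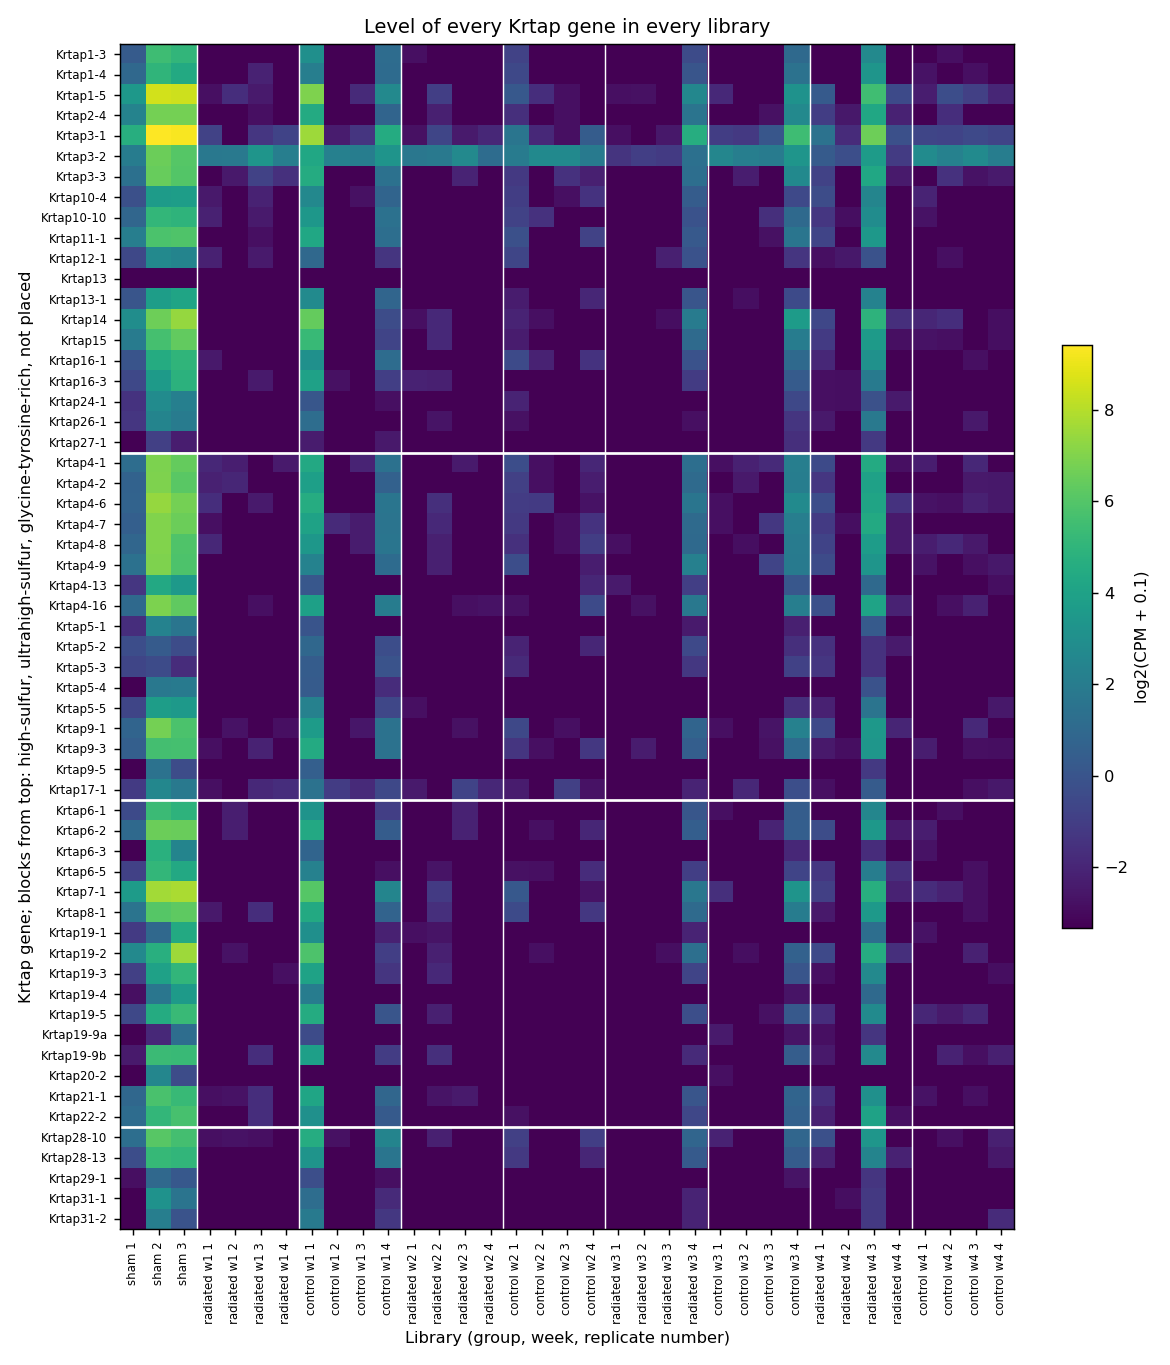
Level of each Krtap gene (rows, in blocks by class) in each library (columns, by group, week and replicate), as log2(CPM + 0.1) with darker colours lower. High libraries are high across most members of all classes, Krtap13 is at 0 throughout, and Krtap3-2 is the row that stays above the floor in every library.

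Among single members, Krtap3-1, a high-sulfur protein gene of the chromosome 11 cluster, was the most abundant on the summed scale and per length. Its mean over all libraries was 81.7 CPM per kb of exon, against 25.5 for Krtap1-5, 25.0 for the glycine-tyrosine-rich gene Krtap7-1, 13.7 for Krtap19-2 and 13.1 for Krtap14. The leading members of the other families ranged down to 0.0565 CPM per kb for Krtap27-1. These means rest largely on the 2 high sham libraries. Krtap3-1 took 20.5%, 18.8% and 18.7% of all Krtap counts in the sham libraries and 17.7%, 26.6%, 25.1% and 16.4% in control week 1 replicate 1, radiated week 3 replicate 4, control week 3 replicate 4 and radiated week 4 replicate 3.

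Krtap3-1 stood at 25.4, 682 and 633 CPM in sham skin. In weeks 1 and 2 radiated skin had 0.470, 0, 0.304 and 0.481 CPM and then 0.0487, 0.526, 0.0903 and 0.163 CPM. No radiated library of these weeks reached the lowest sham library. Control skin had 185, 0.0950, 0.286 and 23.0 CPM in week 1 and 2.94, 0.172, 0.0437 and 1.20 CPM in week 2. In week 3 radiated skin had 0.0457, 0, 0.0762 and 24.2 CPM and control skin 0.405, 0.328, 0.976 and 44.1 CPM. In week 4 these were 2.73, 0.194, 96.5 and 0.758 CPM in radiated and 0.529, 0.486, 0.612 and 0.517 CPM in control skin. The groups overlapped in weeks 1 to 4.

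Krtap11-1, a high-sulfur gene at the end of the chromosome 16 cluster that shares no 31-base stretch with another gene, was at 4.19, 56.1 and 60.8 CPM in sham skin. It was above the floor of 3 counts in 11 libraries and at 0 counts in 22. Outside sham it reached 19.4 CPM in control week 1 replicate 1, 2.31 CPM in control week 1 replicate 4, 3.03 CPM in control week 3 replicate 4, 1.06 CPM in radiated week 3 replicate 4 and 10.9 CPM in radiated week 4 replicate 3. Krtap19-2, a glycine-tyrosine-rich gene, was at 6.22, 26.4 and 189 CPM in sham skin, 56.9 CPM in control week 1 replicate 1 and 23.6 CPM in radiated week 4 replicate 3. It was at 0 counts in 19 libraries. In the 2 high sham libraries, which had like Krtap sums, Krtap19-2 was at 26.4 and 189 CPM where Krtap11-1 was at 56.1 and 60.8 CPM.

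Against sham, Krtap genes were lower in radiated skin of weeks 1, 2 and 3. Genes were tested with edgeR's quasi-likelihood test with Benjamini-Hochberg adjustment over all genes that passed its filter on low counts, and those with an adjusted p under 0.05 were called. Members that passed the filter did so mainly through the high sham libraries, so their counts are a description. All these comparisons share the same 3 sham libraries, for which no week is given. In week 1, 39 of the 58 members were tested and 38 were called lower, where 1.21% of all genes tested were called lower. In week 2, 37 of 38 tested were called lower (2.9% of all genes), in week 3, 34 of 38 (7.75%), and in week 4, 3 of 48 (11.5%). None was called higher in weeks 1 to 4, where 0.543%, 2.16%, 10.4% and 15.2% of all genes were. The median log2 fold change of the members tested was -10.29, -10.74, -6.67 and -3.81 in weeks 1 to 4, against medians over all genes tested of 0.01, -0.01, 0.03 and -0.03. With members at 0 set to the bound that the floor of 3 counts a library gives, the first 3 medians were -9.36, -9.62 and -6.60.

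In radiated week 1 the members with the largest fitted decreases were Krtap7-1, Krtap14 and Krtap4-9. Krtap7-1, at 12.6, 199 and 219 CPM in sham, had 0 counts in all 4 radiated libraries and was at least 1042-fold lower (edgeR adjusted p = 0.0134). Krtap14 was at least 658-fold lower (adjusted p = 0.0161) and Krtap4-9 at least 451-fold lower (adjusted p = 0.0283), both also at 0 counts. The smallest decreases that passed were those of Krtap5-2, Krtap10-4 and Krtap12-1. Krtap5-2, an ultrahigh-sulfur gene at only 0.851 CPM ± 0.277 (SD, n = 3) in sham, was at 0 counts, at least 6.17-fold lower (adjusted p = 0.0274). Krtap12-1 fell from 4.02 ± 3.04 (SD, n = 3) to 0.0538 ± 0.0643 CPM (SD, n = 4), a log2 fold change of -6.04 ± 1.00 (SE; edgeR adjusted p = 0.0191). Krtap3-1 fell by 10.41 on the log2 scale (SE 1.18, edgeR adjusted p = 0.00538). Krtap19-2 and Krtap11-1 passed as well, each with 1 count over the 4 radiated libraries (edgeR adjusted p = 0.00942 and 0.0053).

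In radiated week 2 the largest fitted decreases were those of Krtap4-2, at least 429-fold lower, Krtap11-1, at least 266-fold lower, and Krtap9-3, at least 220-fold lower, all at 0 counts (edgeR adjusted p = 0.0307, 0.016 and 0.0279). The smallest was that of Krtap3-2, which fell by 3.85 on the log2 scale (SE 0.83, edgeR adjusted p = 0.0343) with overlapping groups. Krtap3-1 fell by 11.16 (SE 1.26, adjusted p = 0.00699 by edgeR). In radiated week 3, where replicate 4 was high, Krtap5-5 was at least 64.4-fold lower (edgeR adjusted p = 0.0179), Krtap22-2 fell by 7.67 (SE 1.39, adjusted p = 0.0105) and Krtap6-2 fell by 7.54 (SE 1.62, adjusted p = 0.0173). Krtap3-1, at a log2 fold change of -6.15 (SE 2.05), did not pass in week 3 (edgeR adjusted p = 0.0706), while Krtap19-2 fell by 6.86 (SE 1.65, adjusted p = 0.0245) and Krtap11-1 fell by 7.21 (SE 1.41, adjusted p = 0.0131). In week 4 the 3 members called were Krtap12-1, at -3.99 (SE 1.12, edgeR adjusted p = 0.03), Krtap24-1, at -3.94 (SE 1.15, adjusted p = 0.0352), and Krtap5-2, at -2.44 (SE 0.74, adjusted p = 0.0415).

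These counts depended on single libraries. Shares of all genes beside them are for calls in either direction. In week 1, 15 of 40 members tested were called lower without sham replicate 3 and 5 of 37 without radiated replicate 4. Of all genes 0.306% and 0.239% were called there. Without radiated replicate 3 the count was 0, where 1 gene was called in the whole table and all 39 members tested had an unadjusted p under 0.05. In week 2 the count was 23 of 37 without sham replicate 2, 18 of 39 without sham replicate 3 and 14 of 37 without radiated replicate 3. Of all genes 1.05%, 0.583% and 1.02% were called there. In week 3 it was 52 of 54 without sham replicate 1, and 4 of 38 and 7 of 39 without sham replicates 2 and 3. Of all genes 10.6%, 6.07% and 9.63% were called there. The count was 20, 12 and 13 of 38 without radiated replicates 1, 2 and 3, where 12.2%, 11.7% and 14.3% of all genes were called. In week 4 it was 39 of 39 tested without radiated replicate 3, the high library, and 16 without sham replicate 1. It was 1 without radiated replicate 2 and 0 without sham replicate 2 or 3 or radiated replicate 1 or 4. With all libraries in, 11.5% of all genes were called lower in week 4.

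Control skin was also below sham in most weeks. In control week 1, 54 members were tested and 0 were called by edgeR (4.92% of all genes called), with 17 at an unadjusted p under 0.05 and 0 called by DESeq2. The 2 smallest p-values were those of Krtap4-13 and Krtap4-9, at log2 fold changes of -5.45 (SE 1.47, edgeR adjusted p = 0.0648) and -5.14 (SE 1.45, edgeR adjusted p = 0.0714). In control week 2, 31 of 39 tested were called lower (1.06% of all genes), in week 3, 34 of 43 (6.19%) and in week 4, 36 of 39 (1.9%). In week 2 Krtap21-1 was at 0 counts, at least 225-fold lower (edgeR adjusted p = 0.0439). Krtap19-2 had 1 count over the 4 libraries (edgeR adjusted p = 0.0293) and Krtap3-1 fell by 8.71 (SE 1.36, adjusted p = 0.0299). In week 3 Krtap19-2 fell by 7.84 (SE 1.499, edgeR adjusted p = 0.018), Krtap6-2 fell by 7.57 (SE 1.45, adjusted p = 0.018) and Krtap6-5 fell by 7.35 (SE 1.498, adjusted p = 0.0205). In week 4 Krtap11-1 was at least 302-fold lower (edgeR adjusted p = 0.03) and Krtap22-2 at least 220-fold lower (adjusted p = 0.0409). Median log2 fold changes were -2.86, -8.65, -5.99 and -10.15 in weeks 1 to 4, against -0.04, -0.05, -0.04 and -0.03 over all genes tested. With members at 0 set to their bound they were -7.82 in week 2 and -9.77 in week 4.

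In control week 1 the count rose from 0 to 17 without control replicate 1, the library at 1047 CPM, and to 6 without sham replicate 1. In control week 2 it was 53 without sham replicate 1 and 0 without any one of sham replicates 2 and 3 and control replicates 2, 3 and 4. In those fits at most 5 genes of the whole table were called. In control week 3 it was 52 without sham replicate 1, 2 and 1 without sham replicates 2 and 3, and 4, 1 and 1 without control replicates 1, 2 and 3. With all libraries in, 6.19% of all genes were called lower in control week 3, so counts of 1 or 2 members there are not read as a result. In control week 4 it was 13 without sham replicate 3 and 0 without control replicate 2, 3 or 4, where at most 2 genes of the whole table were called. All members called in these fits were lower. No member was called higher in control weeks 1 to 4, where 3.28%, 1.37%, 5.18% and 1.76% of all genes were.

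Genes of the hair shaft and its sheath were also lower than sham in several of these comparisons, where 1.21%, 2.9%, 7.75% and 11.5% of all genes were called lower in radiated weeks 1 to 4 and 1.65%, 1.06%, 6.19% and 1.9% in control weeks 1 to 4. Of 15 hair shaft keratins, 15, 15, 14 and 5 were called lower than sham in radiated weeks 1 to 4, and 0, 9, 12 and 15 in control weeks 1 to 4. Of 10 inner root sheath genes, which build the sheath that moulds the shaft, 9, 9, 6 and 1 were lower in radiated weeks 1 to 4 and 0, 1, 5 and 9 in control weeks 1 to 4. Of 14 shaft regulators and other shaft genes, 12, 13, 11 and 7 were lower in radiated and 0, 3, 13 and 11 in control skin. So in control week 1 no gene of these 3 lists was called, and the 1 sheath gene of radiated week 4 is near the share of all genes. Of 8 follicle stem cell genes, 0, 3, 4 and 5 were lower in radiated and 0, 0, 3 and 0 in control skin. The list counts rested on single libraries too. Without radiated replicate 3, 1 gene of the whole table was called in radiated week 1. As given above, several fits of control weeks 2 and 4 that left out 1 library called few genes of the table.

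Markers of other cells moved in some of the comparisons with sham. No epidermal keratinocyte marker was lower in radiated weeks 1 to 3 or in control skin, and 1 of 6 was lower and 1 higher in radiated week 4. Of 6 skeletal muscle markers 5, 5 and 4 were higher in control weeks 1 to 3, where 3.28%, 1.37% and 5.18% of all genes were called higher, with sums of 23220 to 36748, 25274 to 45263 and 14851 to 30133 CPM against 6039 to 12957 CPM in sham. All 6 muscle markers were lower in radiated week 4 (884 to 2096 CPM), where all 6 fibroblast markers were higher (27896 to 47066 CPM against 5053 to 11558 CPM in sham), with 11.5% of all genes lower and 15.2% higher there. Of the fibroblast markers 2 were higher in radiated week 3, where 10.4% of all genes were, and 1 was higher in control weeks 1 and 3 each and 1 lower in control week 4. Of 6 adipocyte markers 3 were higher in control week 1 and 1 in control week 3. Of 6 melanocyte markers 2 were lower in control week 4, where 1.9% of all genes were, and 1 in radiated week 3. A single muscle marker was lower in radiated week 3, and a single epidermal marker was higher in control week 4. Of 6 proliferation markers 2 and 4 were lower in radiated weeks 1 and 2, against 1.21% and 2.9% of all genes, and 3 and 4 in control weeks 1 and 3, against 1.65% and 6.19%. Their part in the Krtap values against sham was not tested.

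Over the 35 libraries, which share depth and tissue makeup, the Krtap sum had Spearman's rho of 0.875 with the summed shaft keratins, 0.852 with the inner root sheath list, 0.729 with the list of shaft regulators and other shaft genes, and 0.331 with follicle stem cell genes. With Krtap3-2 left out of the sum, a choice made after its values were seen, these were 0.880, 0.785, 0.624 and 0.200. Of 16330 genes outside the family with a mean of at least 1 CPM, those ranked most like the Krtap sum were Krt31 (rho 0.868) and Krt40 (0.840), both hair shaft keratins, and Prr9 (0.825), a small proline-rich protein gene. They were followed by Gm9639, Gm10229, Gm49918, Crnn (cornulin), Krt28 (an inner root sheath keratin), Gm11937 and Tchh (trichohyalin, a structural protein of the inner root sheath), down to a rho of 0.785. Of these, Gm10229 shares 31-base stretches with Krtap6-1 and Krtap6-5, Gm49918 with Krtap1-3, Krtap10-4 and Krtap10-10, and Gm11937 with Krtap2-4, so reads of these genes and of the members may not be told apart. Without Krtap3-2 in the sum 5 of these 10 genes were again among the 10 most alike, which were led by Tchh (rho 0.917) and Krt33b (0.880), a shaft keratin.

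Radiated against control skin of the same week gave few testable members, because most had too few counts in these groups. In week 1, 2 members were tested and 0 were called by edgeR (0% of all genes), with 1 called by DESeq2. Krtap3-1 had a log2 fold change of -7.29 (SE 1.93, edgeR adjusted p = 0.204) and an adjusted p of 0.0124 by DESeq2, and Krtap3-2 one of -0.83 (SE 0.51, edgeR adjusted p = 0.467). In week 2 the 1 member tested, Krtap3-2, was at -0.44 (SE 0.36, edgeR adjusted p = 0.618), with 0.00577% of all genes called. In week 4, 3 were tested and Krtap3-1 and Krtap1-5 were called higher in radiated skin, where 24.2% of all genes were called higher. Krtap1-5, a high-sulfur gene, was at 1.11, 0, 45.6 and 0.624 CPM in radiated and 0.106, 0.708, 0.427 and 0.154 CPM in control skin, so the groups overlapped. Log2 fold changes were 5.56 (SE 1.77, edgeR adjusted p = 0.026) for Krtap3-1 and 5.06 (SE 1.77, edgeR adjusted p = 0.0391) for Krtap1-5. With the mouse as a block 0 members were called, and Krtap3-1 was at 3.04 (edgeR adjusted p = 0.144). Without radiated replicate 3 the value of Krtap3-1 was 1.23 (edgeR adjusted p = 0.191). Without any one of the 4 control libraries it stayed between 5.55 and 5.62, with an edgeR adjusted p between 0.05 and 0.0653. In each of these 5 fits 0 members were called higher.

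Other lists moved in week 4 as well. Of the 5 shaft keratins tested 3 were higher in radiated skin, as were 6 of 7 inner root sheath genes, with the seventh lower, 4 of 13 shaft regulators and other shaft genes, with 1 lower, 4 of 6 melanocyte markers, 5 of 6 proliferation markers and 6 of 6 fibroblast markers, while 5 of 6 skeletal muscle markers, 6 of 8 follicle stem cell genes and 4 of 6 epidermal keratinocyte markers were lower. Of all genes 24.2% were called higher and 24.2% lower. Of the epidermal markers 1 was higher. Their part in the Krtap values was not tested. The radiated-minus-control difference was tested for change over the 4 weeks in a single fit to the 32 libraries that were not sham. Of 38 members tested 27 were called, where 15.6% of all genes were called, and 14 with the mouse as a block. The adjusted p by edgeR was 0.0296 for Krtap3-1, 0.0102 for Krtap19-2 and 0.0357 for Krtap11-1. Leaving out all libraries of 1 replicate number at a time left 0, 0, 0 and 5 members called for numbers 1 to 4, and DESeq2's likelihood ratio test called 2. With 15.6% of all genes called in the main fit, counts this small are not read as a result about the members.

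Krtap3-2 behaved unlike the other members. It encodes a high-sulfur protein and was the 1 member with at least 3 counts in all 35 libraries. Its level in radiated week 3 was 0.274, 0.420, 0.343 and 2.46 CPM, against 5.63, 4.23, 3.83 and 10.0 CPM in control week 3, so these groups did not overlap. It was the 1 member tested in this comparison and fell by 2.75 on the log2 scale (SE 0.69, edgeR adjusted p = 0.0176), where 13.6% of all genes were called lower. With the mouse as a block it fell by 3.16 (edgeR adjusted p = 0.00863), and without control replicate 4 by 2.38 (edgeR adjusted p = 0.0505). In week 4 it was at 1.16, 0.737, 12.4 and 0.357 CPM in radiated and 6.88, 4.78, 6.72 and 4.08 CPM in control skin, a log2 fold change of -0.60 (SE 0.89, edgeR adjusted p = 0.601). Radiated replicate 3, the library with high levels of all Krtap classes, was the 1 radiated library of week 4 above the control range. Without it the change was -2.87 (edgeR adjusted p = 0.000434).

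In 25 libraries the other 56 members, all but Krtap3-1 and Krtap3-2, summed to less than 10 CPM, with a median of 1.00 CPM. In the 20 of these outside radiated weeks 3 and 4, Krtap3-2 ran from 2.20 to 9.72 CPM with a median of 4.28 CPM. In the 5 from radiated weeks 3 and 4 it ran from 0.274 to 0.737 CPM, below all of the 20. Krtap3-1 over the same 25 libraries stayed between 0 and 1.20 CPM and Krtap3-3 between 0 and 0.467 CPM, with 14 libraries at 0. Among the 38 members with a mean of at least 1 CPM, Spearman's rho with the sum of the other members had a median of 0.753 over the 35 libraries. The least alike were Krtap3-2 at 0.554, Krtap4-13 at 0.587 and Krtap19-2 at 0.618.

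**Figure D3:**
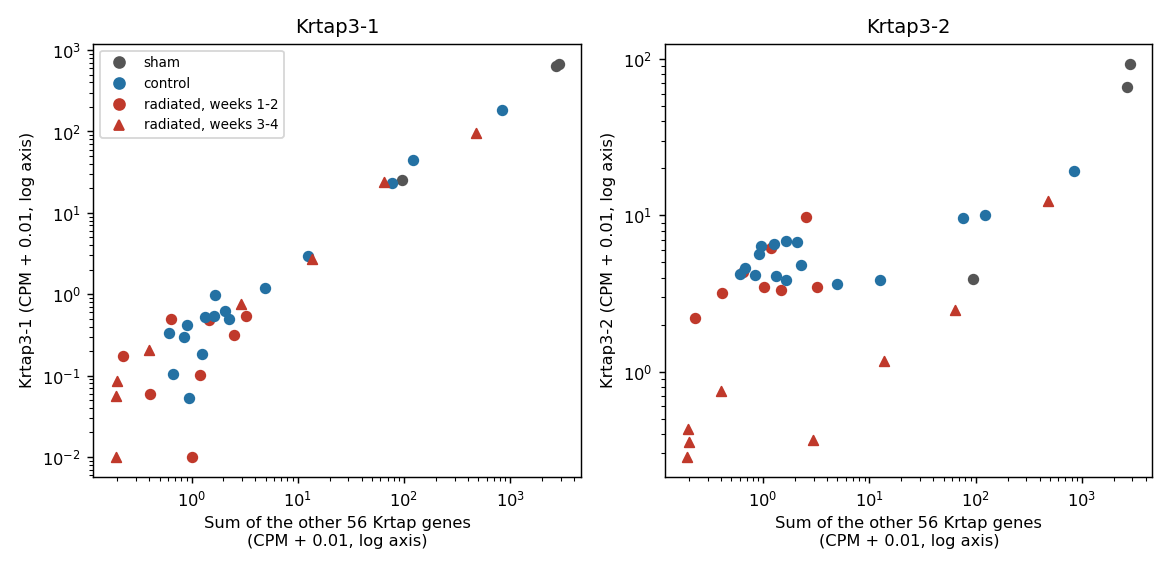
Krtap3-1 (left) and Krtap3-2 (right) in each library (vertical axes, CPM + 0.01, log scale) against the sum of the other 56 members (horizontal axes, CPM + 0.01, log scale), with sham grey, control blue, radiated weeks 1 and 2 red circles and radiated weeks 3 and 4 red triangles. Krtap3-1 follows the sum down to its floor, while Krtap3-2 levels off between 2.20 and 9.72 CPM where that sum is under 10 CPM, except in 5 radiated libraries of weeks 3 and 4 at 0.274 to 0.737 CPM; the other 3 triangles, with sums above 10 CPM, are at 1.16, 2.46 and 12.4 CPM.

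Several features of Krtap3-2 were measured, and sharing of stretches within the family is not particular to it. Of its 1001 31-base stretches 30.3% also occur in another Krtap gene and 0.599%, or 6, in 39 genes outside the family. Those 6 lie between bases 778 and 813 of its transcript of 1031 bases, beyond the coding sequence, which ends at base 350. In 80% of the libraries its estimated count was not a whole number, which is what splitting of shared reads gives. Krtap3-3 shared 42.9% of its stretches with another Krtap gene, and its count was not whole in 54.3% of the libraries. It stayed between 0 and 0.467 CPM in the 25 libraries with low sums. The part of shared reads in the level of Krtap3-2 was not tested. Over the 25 libraries with low sums, the genes ranked most like Krtap3-2 among 16330 were Slc6a9 (rho 0.961), Erbb2 (0.949), Susd2 (0.942), Flg2 (0.939) and Ptprf (0.926), a search made after its values were seen. Over the 20 of them outside radiated weeks 3 and 4, these rhos were 0.943, 0.904, 0.887, 0.886 and 0.860. Flg2 encodes a filaggrin-like protein of the cornified epidermis, Erbb2 a receptor tyrosine kinase and Slc6a9 a glycine transporter. Flg2 ran from 17.6 to 920 CPM in radiated week 3 and from 2815 to 3773 CPM in control week 3. Over the 25 libraries Krtap3-2 had a rho of 0.749 with the follicle stem cell list, 0.674 with inner root sheath genes, 0.627 with epidermal keratinocyte markers, 0.538 with shaft regulators and other shaft genes, 0.506 with shaft keratins, 0.378 with adipocyte markers, 0.322 with skeletal muscle markers, -0.281 with proliferation markers, -0.356 with melanocyte markers and -0.555 with fibroblast markers. For Krtap3-1 the rho with shaft keratins was 0.711 and that with inner root sheath genes 0.550. In week 3, 4 of 8 stem cell genes and 5 of 6 muscle markers were lower in radiated than in control skin, where 13.6% of all genes were called lower and 13.6% higher, with summed levels of 359 to 1051 against 2776 to 3390 CPM and of 2542 to 7548 against 14851 to 30133 CPM. Of the 6 epidermal keratinocyte markers 0 were called lower and 1 higher, but their sums were below the control range in the 3 radiated libraries where Krtap3-2 was lowest: 7120, 12927, 16521 and 30555 CPM in radiated replicates 1 to 4 against 19186 to 24752 CPM in control skin. Of 6 proliferation markers 3 were higher, with sums of 244 to 514 against 122 to 297 CPM. Their part in the fall of Krtap3-2 was not tested.

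The classes were compared within libraries that held at least 100 counts of both classes together, leaving out Krtap3-2. The glycine-tyrosine-rich share of glycine-tyrosine-rich plus high-sulfur counts was 30.6%, 28.8% and 34.4% in the sham libraries, with exact 95% binomial intervals of 28.7% to 32.6%, 28.4% to 29.2% and 34.0% to 34.9%. It was 32.8% in control week 1 replicate 1 and 31.3% in radiated week 4 replicate 3. In radiated week 4 replicate 1, the library of the 10 with the lowest sum, 17.6 CPM, it was 27.3% (21.9% to 33.5%), an interval that overlapped those of 2 sham libraries. It was lower in 4 libraries: 21.5% (19.4% to 23.6%) in control week 1 replicate 4, 21.4% (19.2% to 23.7%) in radiated week 3 replicate 4, 20.1% (18.4% to 21.8%) in control week 3 replicate 4 and 16.5% (11.9% to 22.0%) in control week 2 replicate 1. The intervals of these 4 lay below those of the 3 sham libraries, and 3 of them overlapped that of radiated week 4 replicate 1. The 2 samples of the week 3 mouse had overlapping intervals. Sham replicate 1, with a Krtap sum of 124 CPM, had a share of 30.6%, and control week 1 replicate 4, at 109 CPM, one of 21.5%, so libraries of like sum differed in this share. The intervals cover counting error only. Group shares were not tested, since each group held at most 3 such libraries.

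**Figure D4:**
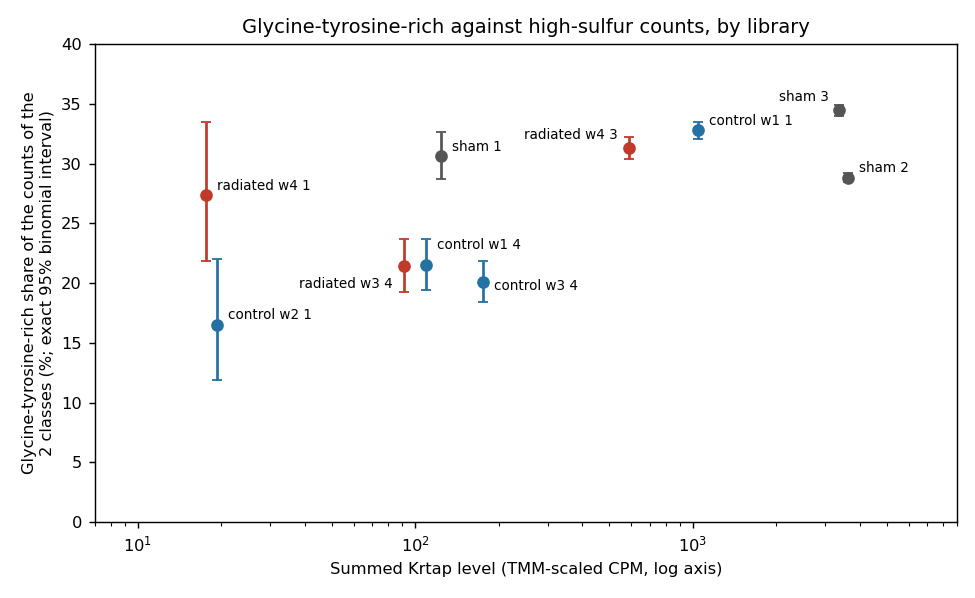
Share of glycine-tyrosine-rich counts among glycine-tyrosine-rich and high-sulfur counts without Krtap3-2 (vertical axis, percent) against the summed Krtap level (horizontal axis, TMM-scaled CPM, log scale) in the 10 libraries with at least 100 such counts; bars are exact 95% binomial intervals, grey sham, red radiated and blue control. Sham libraries lie between 28.8% and 34.4%, and 4 libraries with sums from 19.4 to 176 CPM lie between 16.5% and 21.5%, while radiated week 4 replicate 1, at the lowest sum, is at 27.3%.

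The ultrahigh-sulfur class also differed between libraries of like sum. It took 30.7% of Krtap counts in sham replicate 2 and 20.6% in sham replicate 3, where Krtap4-6, its leading member, was at 170 and 107 CPM. Krtap19-1, a glycine-tyrosine-rich gene named after its values were seen, went the other way, at 1.91 CPM in sham replicate 2 and 20.9 CPM in sham replicate 3. Against sham in radiated week 1, where 1.21% of all genes were called lower, 15 of 16 high-sulfur, 11 of 11 ultrahigh-sulfur and 10 of 10 glycine-tyrosine-rich members tested were lower, with median log2 fold changes of -9.90, -10.29 and -10.51. In radiated week 2, with 2.9% of all genes called lower, these were 16 of 16, 11 of 12 and 8 of 8, with medians of -10.71, -10.98 and -10.11, so the order of the medians was not the same. In control week 2, with 1.06% of all genes called lower, these were 13 of 16, 9 of 11 and 7 of 10, with medians of -7.54, -8.65 and -11.12. Members passed the filter mainly through the high sham libraries, and fitted values of members at 0 counts enter these medians. Whether the classes differed was not tested.

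Control week 2 replicate 1 had follicle lists at widely differing levels. Relative to the mean of the 3 sham libraries, its list of shaft regulators and other shaft genes stood at 52.1%, its inner root sheath genes at 14.8%, its shaft keratins at 5.39% and its Krtap sum at 0.814%. In sham replicate 1 the same quantities were 25.2%, 13.5%, 12.9% and 5.22%. Of the 11 libraries with a Krtap sum above 10 CPM, 4 had the lists in this order, the others being control week 1 replicate 4, at 16.4%, 8.85%, 5.28% and 4.59%, and radiated week 4 replicate 1, at 10.48%, 1.59%, 0.812% and 0.741%. The other 7 did not: in radiated week 4 replicate 3 the values were 38.2%, 26.8%, 18.6% and 24.7%, and in control week 1 replicate 1 they were 46.6%, 33.6%, 48.2% and 44.0%. Within each list the genes of control week 2 replicate 1 spread widely. The 14 shaft regulators and other shaft genes ran from 3.12% to 346% of the sham mean with a median of 31.3%, the 10 inner root sheath genes from 2.05% to 82.8% with a median of 18.8%, and the 15 shaft keratins from 1.00% to 57.9% with a median of 3.10%. At or above 50% were Shh (346%), a signal of the hair matrix, the transcription factor genes Lef1 (126%), Dlx3 (99.7%), Msx2 (88.1%), Hoxc13 (62.7%) and Prdm1 (51.6%), Gata3 (82.8%), a transcription factor of the inner root sheath, and Krt35 (57.9%), a keratin of the early cortex. The regulator list also held Foxn1 at 35.6%, Foxq1 at 23.2% and Gprc5d at 3.12%. Among sheath keratins Krt73 was at 44.7%, Krt25 at 32.6% and Krt72 at 2.05%, and Krt31, a keratin of the later cortex, was at 2.43%. Proliferation markers were at 155% of the sham mean and melanocyte markers at 131%.

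This library could be set beside radiated week 4 replicate 1, which had nearly the same number of Krtap counts, 413 against 408. The pair was chosen after these counts were seen. Krtap3-1 gave 62 counts in the control and 64 in the radiated library, and Krtap1-5 22 and 26. High-sulfur members with at least 3 counts numbered 14 and 11, ultrahigh-sulfur members 10 and 11, and glycine-tyrosine-rich members 2 and 7. The 2 in the control library were Krtap7-1, with 22 counts, and Krtap8-1, with 13, against 10 and 2 in the radiated library. Krtap6-2 gave 0 and 16 counts and Krtap19-2 0 and 14. In the radiated library Krt35 was at 2.52% of the sham mean, Lef1 at 13.1% and Krt71 at 1.92%. These are 2 single libraries of different week and treatment, so the comparison has no replicate check.

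**Figure D5:**
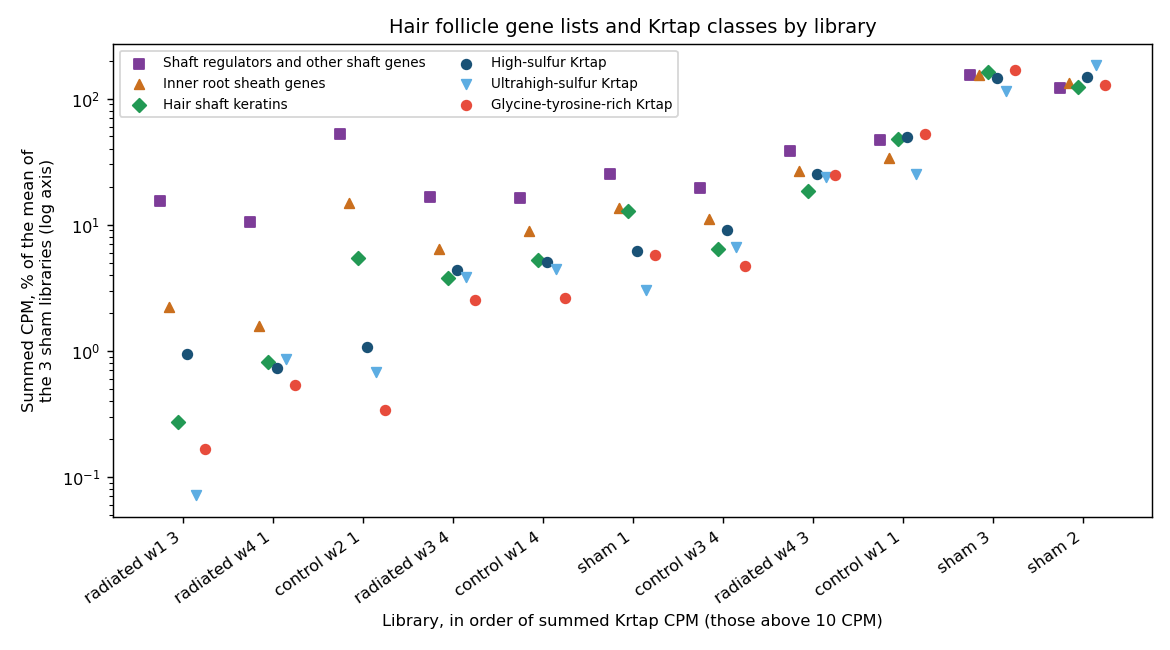
Summed CPM of 3 hair follicle gene lists and 3 Krtap classes, as percent of the mean of the 3 sham libraries (vertical axis, log scale), in the 11 libraries with a Krtap sum above 10 CPM (horizontal axis, in order of that sum); each symbol is 1 list in 1 library. In control week 2 replicate 1 the lists spread from 52.1% for shaft regulators to under 1.1% for the Krtap classes, and in both high sham libraries they lie near or above 100%.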

How the data were processed

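Bulk RNA sequencing of 35 mouse skin samples had been processed by the authors with Trim Galore 0.6.7 and kallisto 0.46.2 on mm10, per the submitters' processing notes. The authors deposited kallisto's estimated counts, given per gene, of which 29.5% to 32.5% per library were not whole, and they were rounded here. Whether counting used strand is not given in the sources used here.

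The test was that of edgeR 4.0.16 under R 4.3.3 (filterByExpr, TMM, quasi-likelihood test) on the 2 groups of each comparison, with p-values adjusted over all genes tested. DESeq2 1.42.0 was an alternative. The standard error is the log2 fold change divided by the square root of F. The scripts were tested on simulated data. The same-numbered radiated and control libraries of a week came from 1 mouse, as far as the numbers of mice and samples tell. The mean correlation of their deviations was 0.07, 0.17, 0.05 and -0.02 in weeks 1 to 4. No libraries held identical values. In the comparisons with sham, p-values measure the spread between these mice. Those of radiated against control skin and of the change over weeks treat the 2 samples of a mouse as separate, except with the mouse as a block.

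Members, gene lists and tests were chosen with earlier results of these data known. Named were the 3 marker genes, per comparison the 3 largest increases and decreases called or else the 2 smallest p-values, the leading member of each family, members least like the rest, genes most like the sum, and members of lists. Others were named after their values were seen. Positions, coding sequences and 31-base stretches come from GENCODE M21 (GRCm38) and promoters from RefSeq. Codon shares replace the protein composition first planned. The RNA of Krtap13 had no counts, and Krtap19-9a, annotated as a pseudogene, has no codon shares. Of the members 12 share no 31-base stretch with another gene and 4 share over 50% of theirs, among them Krtap4-13 at 89.8%. These counts are less certain. Alternatives were other scalings, no filter, unrounded values, a mouse block, 1 fit of all 35 libraries and leaving out each library (for the change over weeks, each replicate number).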

Additional observations from a re-analysis of the deposited data

Results flagged for a closer look

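Within groups of 4, single libraries stood far from the other 3 for the summed Krtap level, the 3 markers and Krtap3-2, in 25 of 38 group checks. The chance rate of about 1 in 20 for such a check holds for normally distributed values. These values spread over orders of magnitude, so no chance rate can be set beside the 25. The 5 quantities share libraries, and counts near 0 set several of the checks. For the summed level these were radiated week 1 replicate 3 at 12.5 CPM, control week 1 replicate 1 at 1047 CPM, radiated and control week 3 replicate 4 at 91.1 and 176 CPM, and radiated week 4 replicate 3 at 589 CPM. Krtap3-1 stood apart in 4 of those libraries, at 185 CPM in control week 1 replicate 1, 24.2 and 44.1 CPM in the week 3 pair and 96.5 CPM in radiated week 4 replicate 3. Krtap11-1 did so at 19.4, 1.06, 3.03 and 10.9 CPM in these 4, and at 0.0435 CPM, 1 count, in radiated week 1 replicate 3. Krtap19-2 did so at 56.9 CPM in control week 1 replicate 1, 2.39 and 1.43 CPM in the week 3 pair and 23.6 CPM in radiated week 4 replicate 3. It also did so at 0.0539 CPM in radiated week 1 replicate 2, 0.117 CPM in radiated week 2 replicate 2, 0.043 CPM in control week 2 replicate 2 and 0.128 CPM in control week 4 replicate 3, each 1 to 3 counts against 0 in the others. Krtap3-2 did so at 9.72 CPM in radiated week 1 replicate 3, 2.46 CPM in radiated week 3 replicate 4 and 12.4 CPM in radiated week 4 replicate 3.

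In the fit without a mouse block the radiated-minus-control difference changed between weeks for Krtap3-1, Krtap19-2 and Krtap11-1. The adjusted p by edgeR over 32 libraries was 0.0296, 0.0102 and 0.0357. With the mouse as a block fewer members were called, and no value is given here for these genes. Leaving out all libraries of 1 replicate number at a time left 0 to 5 of the members called.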

How the results depend on the processing

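Scaling by relative log expression or total counts and unrounded values moved no count of called members by over 1.5 times, and total-count scaling moved no group's mean summed level by more than its SD. For radiated against control skin, DESeq2 called 1 of 2 members tested in week 1, where it called 2.37% of all genes. It called 0 in week 4, where its adjusted p was not available for the members tested. The week 4 count of 2 became 32 of 56 tested without the filter, 27 of 54 with 1 fit of all samples and 0 of 3 with the replicate block. Of all genes 33.0%, 35.0% and 42.7% were called in these fits, in either direction. For radiated skin against sham, week 3 gave 22 of 38 with DESeq2, 52 of 57 without the filter and 52 of 54 with 1 fit of all samples. Of all genes 26.7%, 12.7% and 32.3% were called there. Week 4 gave 6 without the filter, 7 with the replicate block and 10 with 1 fit of all samples. In the main fit of week 4, 11.5% of all genes were called lower. For control skin against sham, week 1 gave 2 without the filter, week 2 gave 1 with the replicate block and 47 with 1 fit of all samples, and week 3 gave 13 with DESeq2. In the main fits of these weeks 1.65%, 1.06% and 6.19% of all genes were called lower. Sham and other mice share a replicate number and nothing else in the labels, so that block is not a pairing. For the change over weeks the block gave 14 and DESeq2 gave 2. The block moved no other count by over 1.5 times. The cause of these differences was not tested, except that leaving out the filter added members to the test. Leaving out each library in turn gave 0 to 0, 0 to 0, 0 to 1 and 0 to 2 members called for radiated against control skin in weeks 1 to 4. It gave 0 to 54, 14 to 54, 4 to 52 and 0 to 39 for radiated skin against sham, 0 to 17, 0 to 53, 1 to 52 and 0 to 54 for control skin against sham. For the change over weeks, leaving out all libraries of 1 replicate number at a time gave 0 to 5. No log2 fold change of the 3 markers or Krtap3-2 changed sign under any alternative; those of Krtap3-2 were added after seeing the data, and 71 of 538 lost and 34 gained the call. At depths of 17362853 to 28487885 counts most members sit at or under the floor outside the high libraries. For those members differences between groups at the floor were not detectable.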
